A study of Saccharomyces cerevisiae with 18 samples.

Results

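The genes described here encode assembly factors of the 60S ribosomal subunit in budding yeast (Saccharomyces cerevisiae), 60 genes taken from a list of systematic names and measured by RNA sequencing before and after osmotic shock. All 60 were present among the 7126 gene identifiers of the count tables, and all 60 passed the low-count filter of every comparison. The list was drawn up by the function of the products, nucleolar, nuclear and export factors of large subunit assembly, with earlier results of these data known. The cells were labelled as strain BY4741, wild type (WT), and a derivative in which HOG1 was replaced by a KAN cassette (hog1::KAN, here HOG1-KO), grown in rich YPD medium to exponential phase and harvested untreated (basal) or after 15 min in 0.4 M NaCl (salt). Experiment 1 held WT basal and WT salt, and experiment 2 held WT basal, WT salt, HOG1-KO basal and HOG1-KO salt, each with 3 biological replicates. Poly(A) RNA was made into stranded libraries with a TruSeq kit in experiment 1 and with a Lexogen CORALL kit in experiment 2, and the 18 libraries held from 11135883 to 16527859 counts.

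HOG1 itself held 0 or 1 count in each HOG1-KO library and from 2559 to 4808 counts in the WT libraries of experiment 2. Transcripts of the auxotrophic markers LEU2, URA3 and MET17 were present in every library of experiment 1, LEU2 at 168 to 191 CPM (counts scaled to a common library total), and were at or near 0 in experiment 2, so the WT cells of both experiments differed in these markers as well as in the kit. BY4741 is known to lack these genes, and the WT libraries of experiment 1 therefore go against their strain label. Among the WT libraries of experiment 2, basal replicate 1 and salt replicate 2 stood apart from their groups. A median assembly factor transcript lay 0.21 (log2) above its group mean in that basal library, with 53 of 60 above it, and 0.39 above it in that salt library, with 56 of 60 above it. The counts of calls and the summed shares that use these libraries are also given without them, while values of single genes include them unless stated otherwise.

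The large subunit is built in the nucleolus on a long precursor RNA, passes through the nucleoplasm and is exported to the cytoplasm, and assembly factors bind it transiently at each step without staying in the finished ribosome. GTPases, RNA helicases and AAA ATPases remodel the particle, and proteins of the Brix fold and the Noc proteins hold its RNA domains. Some relatives of ribosomal proteins occupy sites that ribosomal proteins take later. In yeast these genes belong to the ribosome biogenesis regulon, whose promoters are known for a PAC element and an RRPE element and whose transcripts fall when cells meet stress. HOG1 is the kinase at the end of the high osmolarity glycerol pathway, which restores osmotic balance in hypertonic medium.

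Promoters were read from the R64 reference genome as windows of 300 bases, from 250 before to 50 after the first base of the coding sequence, and searched on both strands for GATGAG, the core of PAC, and AAAATTT, the core of RRPE. The PAC core occurred in 56 of 60 windows (93.3%), against 1222 of 6001 windows of all genes (20.4%). The RRPE core occurred in 58 of 60 (96.7%), against 1391 of 6001 (23.2%). Both cores stood together in 54 windows (90% against 7.75% of all windows), and no window lacked both, whereas 64.2% of all windows did. At least 2 PAC cores were found in 31 windows (51.7% against 2.98%). MAK5 and RRP1 had the PAC core alone, and IPI1, NSA1, RIX1 and SPB1 the RRPE core alone. The centre of the median match lay 117.5 bases before the coding start for PAC (100 matches) and 136 bases before it for RRPE (79 matches). Over the matches in all windows the medians were 110.5 and 128 bases. A match describes letters in a window and does not show binding.

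**Figure D1:**
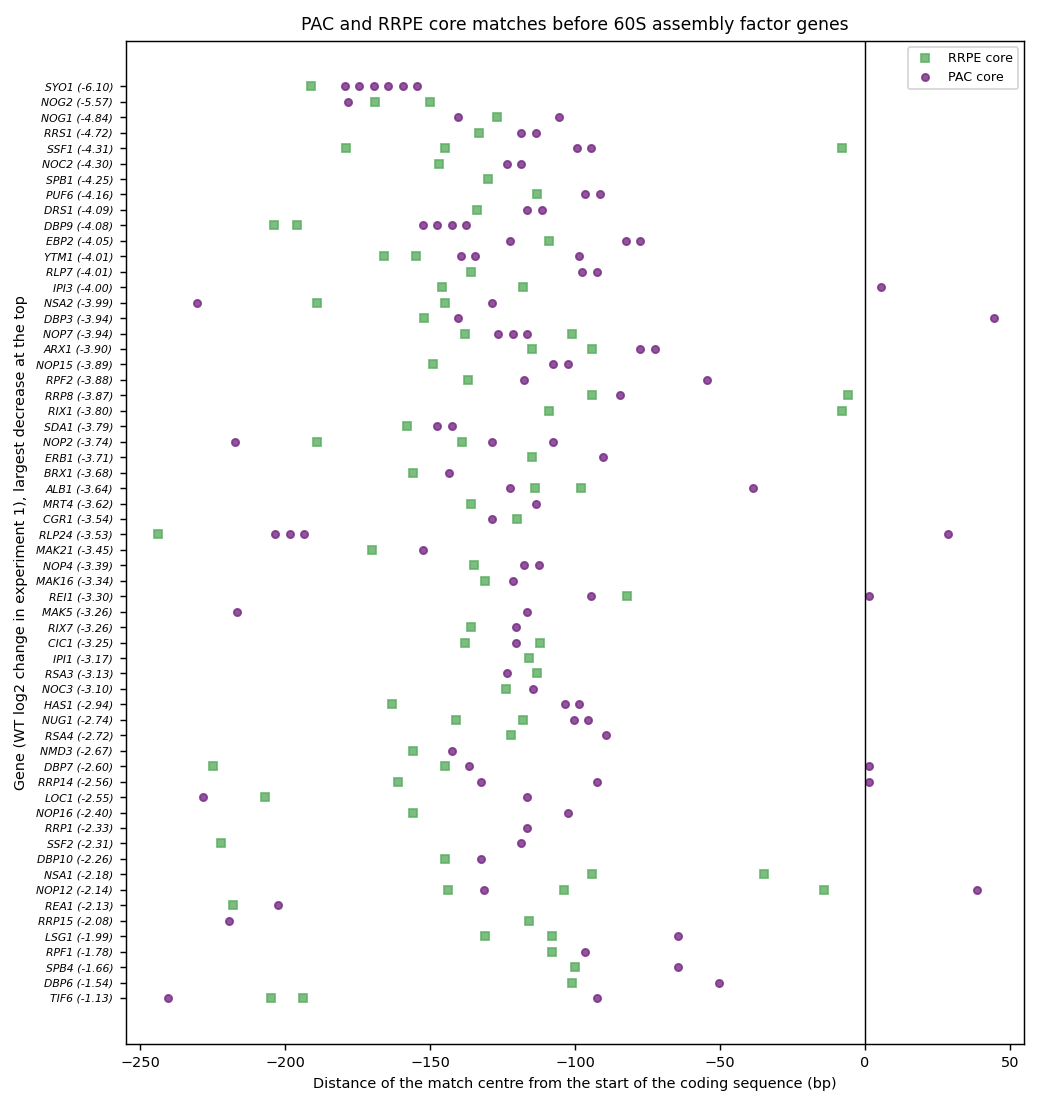
Positions of PAC core and RRPE core matches in the promoter windows of the 60 genes, in bases from the coding start (x axis), with genes on the y axis. The median match lies 117.5 bases before the start for PAC and 136 bases for RRPE. Over the matches in the windows of all genes the medians are 110.5 and 128 bases.

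Windows of 6 genes are printed because these genes span the range of responses described below. SYO1, NOG2 and NOG1 had the largest decreases in experiment 1, and SPB4, DBP6 and TIF6 the smallest. Each is written 5′ to 3′ on the coding strand of the gene, with PAC and RRPE cores on either strand in capitals.
SYO1, chrIV:340085-340384, minus strand: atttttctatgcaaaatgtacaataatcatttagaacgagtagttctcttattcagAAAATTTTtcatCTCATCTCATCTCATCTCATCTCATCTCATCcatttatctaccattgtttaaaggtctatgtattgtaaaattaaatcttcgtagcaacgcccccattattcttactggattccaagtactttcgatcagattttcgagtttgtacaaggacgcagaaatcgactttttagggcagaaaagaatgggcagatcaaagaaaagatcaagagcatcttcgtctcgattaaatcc
NOG2, chrXIV:723063-723362, minus strand: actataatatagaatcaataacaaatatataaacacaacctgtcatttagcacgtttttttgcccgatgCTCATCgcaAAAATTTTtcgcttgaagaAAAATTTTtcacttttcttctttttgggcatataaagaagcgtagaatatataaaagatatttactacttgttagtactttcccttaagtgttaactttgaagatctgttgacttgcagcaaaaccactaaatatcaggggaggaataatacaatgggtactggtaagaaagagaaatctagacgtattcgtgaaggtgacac
NOG1, chrXVI:370728-371027, plus strand: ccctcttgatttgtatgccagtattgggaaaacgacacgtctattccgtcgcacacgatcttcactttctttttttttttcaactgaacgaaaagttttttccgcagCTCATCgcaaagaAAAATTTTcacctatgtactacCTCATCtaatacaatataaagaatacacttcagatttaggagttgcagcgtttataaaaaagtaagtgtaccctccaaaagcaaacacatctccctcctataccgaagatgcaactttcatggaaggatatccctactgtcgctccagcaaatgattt
SPB4, chrVI:146885-147184, minus strand: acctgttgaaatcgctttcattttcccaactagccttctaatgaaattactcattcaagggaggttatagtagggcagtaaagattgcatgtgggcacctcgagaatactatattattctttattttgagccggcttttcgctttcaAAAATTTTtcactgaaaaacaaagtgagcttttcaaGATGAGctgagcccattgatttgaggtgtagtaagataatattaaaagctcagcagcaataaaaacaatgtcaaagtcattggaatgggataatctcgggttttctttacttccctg
DBP6, chrXIV:695345-695644, plus strand: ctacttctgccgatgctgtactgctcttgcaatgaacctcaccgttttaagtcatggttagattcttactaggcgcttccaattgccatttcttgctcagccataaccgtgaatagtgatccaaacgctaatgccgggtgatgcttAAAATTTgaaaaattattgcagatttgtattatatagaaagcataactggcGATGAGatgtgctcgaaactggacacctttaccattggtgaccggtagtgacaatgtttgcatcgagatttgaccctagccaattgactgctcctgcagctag
TIF6, chrXVI:593020-593319, minus strand: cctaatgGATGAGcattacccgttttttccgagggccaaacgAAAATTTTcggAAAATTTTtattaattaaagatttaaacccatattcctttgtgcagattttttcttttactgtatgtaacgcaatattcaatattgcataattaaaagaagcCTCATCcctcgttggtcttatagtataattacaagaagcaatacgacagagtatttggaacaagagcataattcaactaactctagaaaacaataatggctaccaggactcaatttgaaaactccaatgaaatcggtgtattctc

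The SYO1 window held 6 PAC cores in tandem, each sharing 1 base with the next, and 1 RRPE core. The NOG2 window held 1 PAC and 2 RRPE cores, and the NOG1 window 2 and 1. The weakly responding genes had the same letters: SPB4 and DBP6 had 1 core of each kind, and TIF6 had 2 of each. Both cores stood in 54 of the 60 windows, so their presence could hardly separate the genes that fell most from those that fell least. These 6 genes were picked by their response, and a relation of the cores to its size was not tested.

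In WT cells of experiment 1, salt lowered the transcripts of all 60 assembly factors, with a median log2 change of -3.49, and raised none. Of all 5878 genes tested, 33.8% were called lower and 35.4% higher (edgeR quasi-likelihood test, Benjamini-Hochberg adjusted p under 0.05 over all genes), and the median over all genes was 0.02. The decreases ran from -1.13 for TIF6 to -6.10 for SYO1, every one at least 2-fold and 40 of them at least 8-fold. Every salt library lay below every basal library for all 60 genes, against 34.6% of all genes tested. Summed over the 60 genes, the transcripts made up 0.825 ± 0.102% (SD, n = 3) of all counts in basal cells and 0.106 ± 0.0130% in salt, a 7.78-fold lower share. Values are shares of a library's RNA, and in bulk RNA fewer cells of a kind and less RNA per cell cannot be told apart.

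In WT cells of experiment 2 all 60 transcripts again fell (27.2% of 6107 genes tested were called lower and 30.1% higher), with a median of -2.53 against 0.04 over all genes. The decreases ran from -0.85 for DBP6 to -4.60 for NOG1, 59 of them at least 2-fold and 18 at least 8-fold, and the 3 salt libraries lay below the 3 basal libraries for all 60 (25.9% of all genes). The summed share went from 0.945 ± 0.180% to 0.204 ± 0.0527% of counts (SD, n = 3), 4.64-fold lower. Without both deviating libraries the share was 4.86-fold lower and the median change -2.60, and single changes moved by between -0.50 and 0.17. In HOG1-KO cells 59 of 60 fell (25.6% of 6107 genes were called lower and 28.8% higher), with a median of -1.80 against 0.02 over all genes and a range from -0.33 for DBP6 to -3.38 for SYO1. Of these genes 57 fell at least 2-fold and 2 at least 8-fold, SYO1 and RRS1, and the libraries did not overlap for all 60 (34.7% of all genes). The summed share went from 1.10 ± 0.0571% to 0.362 ± 0.0346%, 3.05-fold lower. The order of the genes was similar in the independent WT experiments (Pearson r = 0.82, Spearman rho = 0.77 over 60 genes, given as a description).

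**Figure D2:**
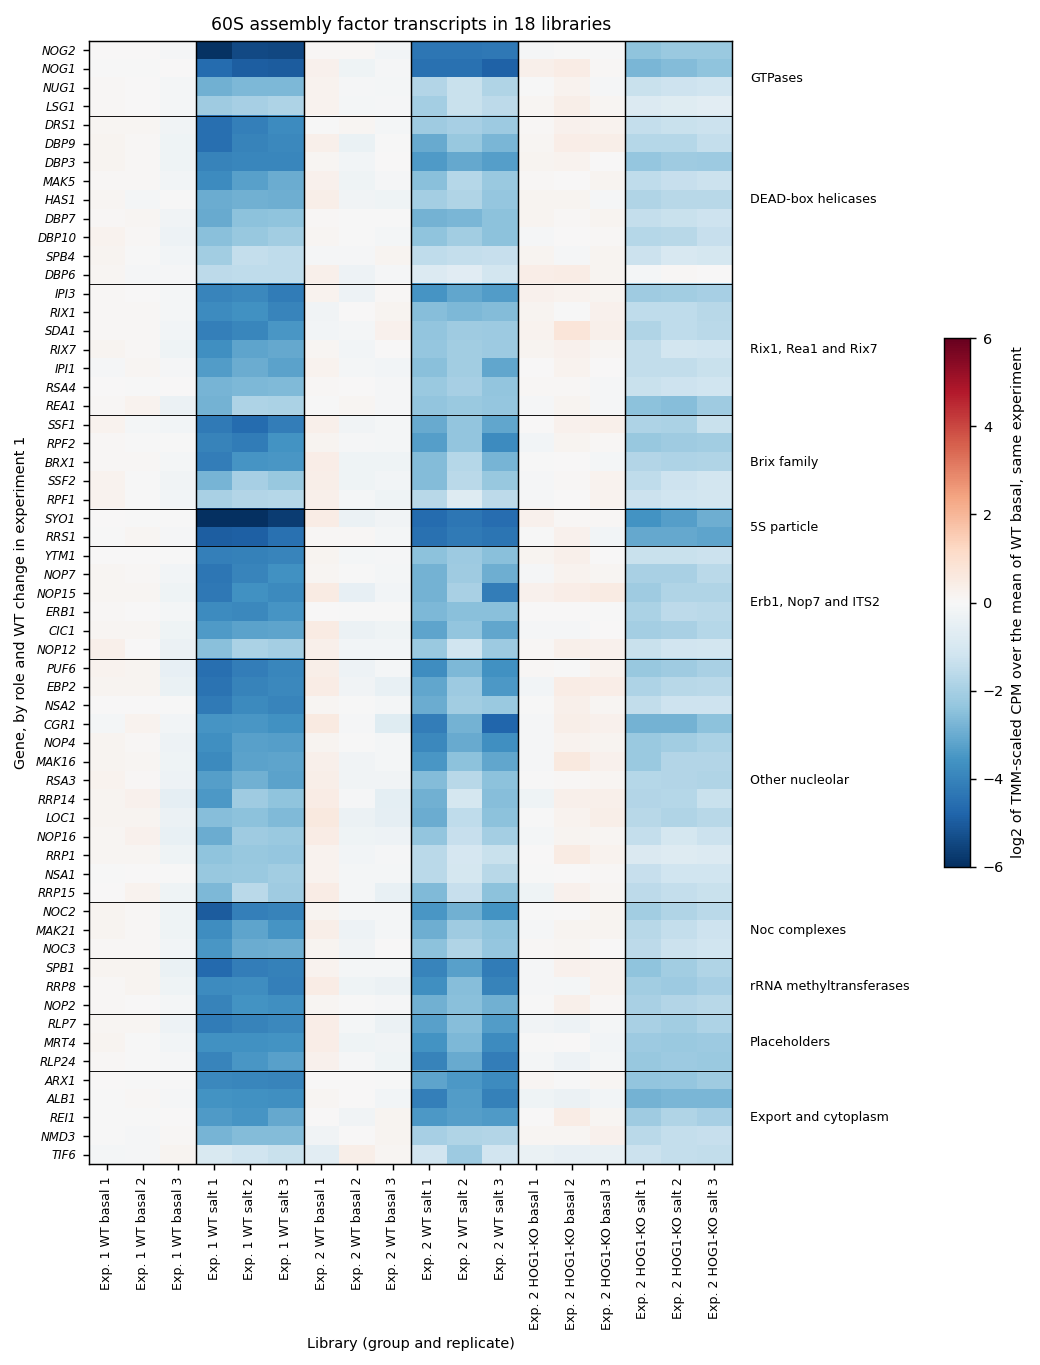
Log2 level of each of the 60 transcripts in each of the 18 libraries relative to the WT basal mean of the same experiment, with genes ordered by role. For each gene the salt libraries are lower than the basal libraries of the same strain and experiment. For most genes the HOG1-KO salt libraries are less low than the WT salt libraries of experiment 2.

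The role of the 5S ribonucleoprotein, the small RNA and its proteins RPL5 and RPL11, held only 2 genes here, SYO1 and RRS1. Of all roles it had the lowest medians, at -5.41, -4.42 and -3.25 in WT experiment 1, WT experiment 2 and HOG1-KO. RPF2, which acts with RRS1 on that particle, was placed with the Brix proteins below and fell less than these 2 genes. SYO1 (YDL063C, chrIV:338272-340134 on the minus strand) encodes symportin, which carries RPL5 and RPL11 into the nucleus together. Its basal libraries of experiment 1 stood at 88.6, 85.7 and 85.2 CPM and its salt libraries at 0.759, 1.2 and 1.66 CPM, the latter resting on as few as 9 counts in a library. In experiment 2 the WT values were 185, 108 and 116 CPM basal and 5.56, 6.86 and 5.67 CPM in salt, and the HOG1-KO values 163, 145 and 142 CPM and 11.4, 13.9 and 17.7 CPM. No salt library of either strain came near a basal one, and the HOG1-KO salt libraries were all above the WT salt libraries. The log2 changes were -6.10 ± 0.18 (SE, edgeR adjusted p = 3.13e-11), -4.49 ± 0.24 (adjusted p = 3.71e-10) and -3.38 ± 0.22 (adjusted p = 1.37e-08) in WT experiment 1, WT experiment 2 and HOG1-KO, the first a 68.5-fold decrease.

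RRS1 (YOR294W, chrXV:868340-868951 on the plus strand) encodes the partner of RPF2 that docks the 5S particle on the precursor. Its WT libraries held 89.8, 97.6 and 86.2 CPM basal and 2.95, 3.08 and 4.15 CPM in salt in experiment 1, and 96.3, 94.5 and 83 CPM basal and 4.13, 4.8 and 4.44 CPM in salt in experiment 2. The HOG1-KO libraries held 88.8, 108 and 82.1 CPM basal and 11, 10.9 and 10.1 CPM in salt. Basal levels of the strains overlapped and salt levels did not. The changes were -4.72 ± 0.14, -4.35 ± 0.16 and -3.13 ± 0.15 (SE, edgeR adjusted p = 4.24e-11, 9.16e-12 and 6.52e-10).

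The 4 GTPases spread widely, with medians of -3.79, -2.97 and -1.76 in WT experiment 1, WT experiment 2 and HOG1-KO. NOG2 (YNR053C, chrXIV:721120-723112 on the minus strand), a nuclear GTPase that holds the site on the precursor later taken by the export adapter NMD3, had basal values of 191, 187 and 179 CPM and salt values of 3.04, 4.36 and 4.21 CPM in experiment 1. In experiment 2 it had 146, 146 and 124 CPM basal and 6.9, 6.86 and 7.18 CPM in salt in WT, and 130.3, 136 and 136 CPM basal and 25.8, 29.9 and 29.7 CPM in salt in HOG1-KO. Basal libraries of the strains were alike, and each HOG1-KO salt library lay far above each WT salt library. The changes were -5.57 ± 0.13, -4.32 ± 0.15 and -2.24 ± 0.13 (SE, edgeR adjusted p = 6.14e-12, 3.03e-12 and 3.52e-09). NOG2 is the only one of the 60 with an intron, which holds a small nucleolar RNA on the same strand, so its counts can include reads of that RNA.

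NOG1 (YPL093W, chrXVI:370978-372921 on the plus strand), a GTPase that stays on the particle from the nucleolus to the cytoplasm, was at 497, 511 and 529 CPM basal and 20.8, 16.8 and 16.2 CPM in salt in experiment 1. The WT values of experiment 2 were 711, 498 and 568 CPM basal and 26.2, 26.5 and 20.4 CPM in salt, and those of HOG1-KO 744, 808 and 615 CPM basal and 88.4, 98.1 and 111 CPM in salt. Every HOG1-KO salt library lay well above every WT salt library of that experiment, while the basal libraries of the strains overlapped. The changes were -4.84 ± 0.12, -4.60 ± 0.21 and -2.86 ± 0.19 (SE, edgeR adjusted p = 9.80e-12, 7.99e-11 and 1.70e-08). NUG1, a nuclear GTPase, changed by -2.74, -1.61 and -1.29. LSG1 (YGL099W), the cytoplasmic GTPase that releases NMD3, went from 93.5, 89.8 and 82.8 to 20.3, 22.3 and 24.2 CPM in experiment 1. The WT libraries of experiment 2 went from 138, 111 and 113 to 29, 47.8 and 40.4 CPM, and those of HOG1-KO from 132, 152 and 131 to 68.9, 73.6 and 77.1 CPM. Its groups did not overlap either, with smaller changes of -1.99 ± 0.11, -1.62 ± 0.17 and -0.92 ± 0.17 (SE, edgeR adjusted p = 5.20e-09, 9.73e-07 and 2.99e-04).

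The 9 RNA helicases of the DEAD-box family had medians of -2.94, -2.10 and -1.53, the smallest of any role in WT experiment 1, and spanned a wide range. DRS1 (YLL008W, chrXII:131729-133987 on the plus strand) read 167, 167 and 135 CPM basal and 6.75, 8.99 and 11.4 CPM in salt in experiment 1. WT cells of experiment 2 read 114, 123 and 106 CPM basal and 26, 28.7 and 25.2 CPM in salt, and HOG1-KO cells 119, 138 and 133 CPM basal and 42.9, 44.6 and 47.3 CPM in salt. No salt library overlapped the basal ones, and the changes were -4.09 ± 0.17, -2.10 ± 0.13 and -1.53 ± 0.13 (SE, edgeR adjusted p = 4.44e-10, 1.77e-09 and 1.24e-07). DBP9 and DBP3 fell by similar amounts in experiment 1 (-4.08 and -3.94), and MAK5, HAS1, DBP7 and DBP10 lay between -3.26 and -2.26.

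DBP6 (YNR038W, chrXIV:695595-697484 on the plus strand), a helicase of the earliest precursors, had the smallest change of the 60 in both strains of experiment 2. Its values were 84.6, 75.6 and 74.9 CPM basal and 26, 27.1 and 27.6 CPM in salt in experiment 1, 192, 127 and 149.7 CPM basal and 89.2, 97.5 and 73.5 CPM in salt in WT of experiment 2, and 205, 212 and 174 CPM basal and 144, 166 and 160.0 CPM in salt in HOG1-KO. No salt library overlapped the basal libraries of its own strain and experiment, but in HOG1-KO the closest were 166 and 174 CPM. The changes were -1.54 ± 0.10 and -0.85 ± 0.17 in WT (SE, edgeR adjusted p = 3.07e-08 and 5.10e-04) and -0.33 ± 0.17 in HOG1-KO, where DBP6 alone of the 60 did not pass the test (adjusted p = 0.109). It passed there when the fit held only the groups compared (adjusted p = 0.00723) or lacked both deviating WT libraries (0.0133). SPB4 (YFL002C), another helicase, went from 68.6, 60.9 and 54.8 to 14.3, 22.6 and 21.4 CPM in experiment 1. The WT libraries of experiment 2 went from 75.9, 75.5 and 89.3 to 28.2, 30.2 and 30.7 CPM, and those of HOG1-KO from 90.9, 77.6 and 90.8 to 32.8, 41 and 38.1 CPM. Its changes of -1.66 ± 0.16, -1.43 ± 0.14 and -1.21 ± 0.14 all passed (SE, edgeR adjusted p = 1.53e-06, 2.71e-07 and 2.89e-06).

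**Figure D3:**
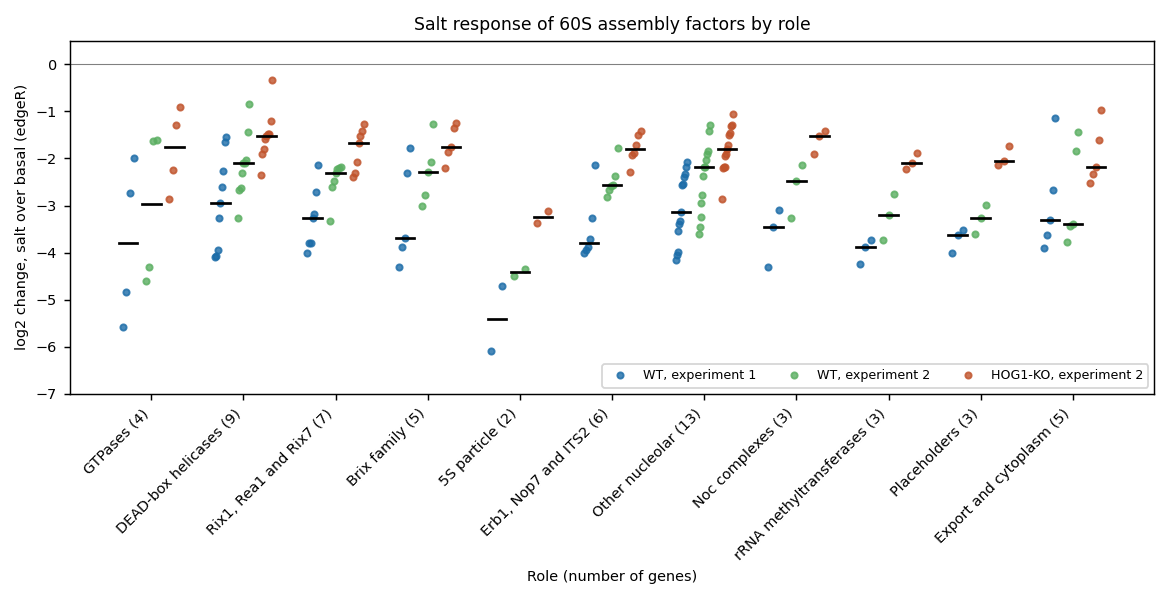
Log2 change in salt of each assembly factor (points), grouped by role, in WT of experiment 1, WT of experiment 2 and HOG1-KO; bars mark the median of the role. All points lie below 0, the 5S role has the lowest median, and DBP6 in HOG1-KO lies nearest to 0 at -0.33.

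The AAA ATPases REA1 and RIX7 pull other factors off the particle, and RIX1, IPI1 and IPI3 form the complex that brings REA1 to it. The 7 genes of this role, with RSA4 and SDA1, had medians of -3.26, -2.31 and -1.68. REA1 (YLR106C, chrXII:349006-363738 on the minus strand), also called MDN1, has the longest coding sequence of the 60. Its values were 211, 235 and 155 CPM basal and 28.3, 55.2 and 53.4 CPM in salt in experiment 1, 999.6, 1107 and 983 CPM basal and 197, 219.9 and 206 CPM in salt in WT of experiment 2, and 979, 1162 and 983 CPM basal and 184, 177 and 235 CPM in salt in HOG1-KO. WT and HOG1-KO salt libraries overlapped, and the changes were -2.13 ± 0.22, -2.31 ± 0.16 and -2.39 ± 0.16 (SE, edgeR adjusted p = 2.60e-06, 8.26e-09 and 2.07e-08). Per kb of coding sequence REA1 stood at 13.6 CPM in basal WT of experiment 1, the lowest of the 60, and at 69.9 CPM in experiment 2; each experiment had its own kit and was scaled separately. IPI3 fell by most of the rest of the role (-4.00, -3.33 and -2.30), and RIX1, SDA1, RIX7, IPI1 and RSA4 lay between -3.80 and -2.72 in experiment 1.

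Factors of the nucleolar precursor fell over a similar range. Of the cluster at the internal spacer ITS2, with medians of -3.80, -2.57 and -1.80, ERB1 (YMR049C, chrXIII:368094-370517 on the minus strand), which forms a complex with YTM1 and NOP7, was at 239.9, 233 and 209 CPM basal and 16.5, 15.5 and 19.8 CPM in salt in experiment 1. In experiment 2 it was at 236, 226 and 229 CPM basal and 36, 40.1 and 40.0 CPM in salt in WT and at 233, 233 and 227 CPM basal and 61, 77.1 and 74.4 CPM in salt in HOG1-KO. Replicates were close and no groups of different treatment overlapped (changes -3.71 ± 0.12, -2.57 ± 0.14 and -1.71 ± 0.13, SE, edgeR adjusted p = 4.62e-11, 3.21e-10 and 6.12e-08). Its partners moved by like amounts: YTM1 changed by -4.01, -2.37 and -1.50, and NOP7 by -3.94, -2.58 and -1.92. NOP15 and CIC1, which bind the ITS2 RNA, changed by -3.89 and -3.25 in experiment 1, and NOP12 by -2.14.

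The 5 genes of the Brix fold had medians of -3.68, -2.28 and -1.75. They include the paralogs SSF1 (YHR066W) and SSF2 (YDR312W), interchangeable factors of the nucleolar precursor whose similar sequences make the split of reads between them uncertain. SSF1 went from 85.1, 67.4 and 65.6 to 3.88, 3 and 4.04 CPM in experiment 1, from 69.2, 49.2 and 51.3 to 6.9, 10.9 and 6.42 CPM in WT of experiment 2 and from 57.1, 68 and 70.5 to 15.7, 15.4 and 22.5 CPM in HOG1-KO. SSF2 went from 37.9, 32.6 and 28.9 to 4.81, 8.39 and 6.77 CPM, from 39.4, 25.3 and 26.9 to 5.05, 10.0 and 6.33 CPM and from 28.7, 32.5 and 35.6 to 10.6, 13.1 and 14.3 CPM in the same order. Per kb of coding sequence SSF1 stood at 53.4 CPM and SSF2 at 24.3 CPM in basal cells of experiment 1, and at 2.67 and 4.89 CPM in salt, where the order of the pair was reversed. In salt in experiment 2 SSF1 stayed above SSF2, at 5.93 against 5.24 CPM per kb in WT and 13.1 against 9.28 in HOG1-KO. The changes were -4.31 ± 0.16, -2.79 ± 0.23 and -1.86 ± 0.22 for SSF1 (SE, edgeR adjusted p = 2.46e-10, 5.57e-08 and 4.45e-06), and -2.31 ± 0.19, -2.08 ± 0.25 and -1.35 ± 0.24 for SSF2 (adjusted p = 3.00e-07, 3.52e-06 and 2.07e-04). RPF1 (YHR088W), another protein of the Brix fold, went from 69.1, 58.9 and 53.9 to 15.9, 18.1 and 18.6 CPM in experiment 1. The WT libraries of experiment 2 went from 110.5, 82.8 and 76.4 to 28.4, 52 and 30.3 CPM, and those of HOG1-KO from 86.1, 91.7 and 103 to 36.7, 38.9 and 42 CPM. WT salt replicate 2, one of the deviating libraries, was the highest of the WT salt values and lay above every HOG1-KO salt library. RPF1 changed by -1.78 ± 0.13, -1.28 ± 0.21 and -1.25 ± 0.21 (SE, edgeR adjusted p = 7.26e-08, 9.56e-05 and 1.32e-04), while RPF2, the partner of RRS1, changed by -3.88, -3.01 and -2.20.

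Among 13 other early nucleolar factors the medians were -3.13, -2.17 and -1.81. CGR1 (YGL029W), a small protein needed to process the precursor RNA, read 19, 23.9 and 18.2 CPM basal and 1.77, 1.8 and 1.66 CPM in salt in experiment 1. WT cells of experiment 2 read 59, 38.4 and 24.9 CPM basal and 2.27, 5.64 and 1.51 CPM in salt, and HOG1-KO cells 39.4, 51.3 and 48.7 CPM basal and 5.78, 5.78 and 7.44 CPM in salt. Its WT replicates of experiment 2 scattered by more than 2-fold in both treatments without overlap between treatments, and the changes were -3.54 ± 0.19, -3.61 ± 0.38 and -2.87 ± 0.36 (SE, edgeR adjusted p = 6.29e-09, 1.02e-06 and 9.39e-06). RRP1 (YDR087C), a nucleolar protein of early precursors, went from 81.3, 80.3 and 61.3 to 14.1, 15.3 and 14.8 CPM in experiment 1, from 103, 80.8 and 85.5 to 29, 44.4 and 36 CPM in WT of experiment 2 and from 90.9, 125 and 103 to 48.9, 52.4 and 51.7 CPM in HOG1-KO. NSA1 (YGL111W), the factor that RIX7 removes, went from 111, 112 and 111 to 22.8, 24.2 and 26.5 CPM, from 112, 90.7 and 90.3 to 31.8, 46.6 and 31.1 CPM and from 97.1, 100.2 and 103 to 37.5, 42.3 and 42.9 CPM. For both genes the groups of a strain did not overlap and the changes were modest, -2.33 ± 0.13, -1.30 ± 0.17 and -1.06 ± 0.17 for RRP1 and -2.18 ± 0.10, -1.41 ± 0.16 and -1.29 ± 0.16 for NSA1 (SE, edgeR adjusted p at most 9.23e-05). PUF6, an RNA-binding protein, and EBP2 fell further in experiment 1, with changes of -4.16 and -4.05. NSA2, a factor of the later nucleolar and nuclear particle, changed by -3.99 there. The other early factors changed by between -2.08 (RRP15) and -3.39 (NOP4) in experiment 1.

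MAK21, NOC2 and NOC3, proteins that escort the precursor from nucleolus to nucleoplasm, had medians of -3.45, -2.47 and -1.53, with NOC2 the most reduced (-4.30, -3.27 and -1.90). The RNA methyltransferases of the large subunit RNA had medians of -3.87, -3.21 and -2.10. SPB1 (YCL054W, chrIII:31449-33974 on the plus strand) was at 127, 124 and 83.4 CPM basal and 4.39, 6.33 and 6.65 CPM in salt in experiment 1. In experiment 2 it was at 149, 121 and 118 CPM basal and 8.25, 13.5 and 7.08 CPM in salt in WT and at 122, 157 and 150.5 CPM basal and 24.3, 30.8 and 37.4 CPM in salt in HOG1-KO. Every HOG1-KO salt library exceeded every WT salt library, while the basal libraries of the strains overlapped. SPB1 changed by -4.25 ± 0.20, -3.73 ± 0.24 and -2.21 ± 0.22 (SE, edgeR adjusted p = 1.47e-09, 3.10e-09 and 9.22e-07), NOP2 by -3.74, -2.75 and -1.89, and RRP8 by -3.87, -3.21 and -2.10.

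RLP24, RLP7 and MRT4 resemble the ribosomal proteins L24, L7 and P0, and had medians of -3.62, -3.26 and -2.05. RLP24 (YLR009W, chrXII:166537-167136 on the plus strand), which holds the site of L24 until the particle reaches the cytoplasm, read 144, 134 and 131 CPM basal and 8.86, 12.2 and 14.1 CPM in salt in experiment 1. In experiment 2 it read 154, 121 and 107 CPM basal and 7.91, 15.7 and 7.27 CPM in salt in WT and 116, 104 and 116 CPM basal and 25.9, 28.1 and 27.2 CPM in salt in HOG1-KO. The deviating WT salt replicate 2 held about 2 times the level of the other WT salt libraries and was still below every HOG1-KO salt library. Its changes were -3.53 ± 0.14, -3.60 ± 0.25 and -2.05 ± 0.23 (SE, edgeR adjusted p = 4.77e-10, 6.78e-09 and 2.95e-06).

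The 5 factors of export and of the cytoplasmic steps had medians of -3.30, -3.38 and -2.17 and spread from -1.13 for TIF6 to -3.90 for ARX1 in experiment 1. ARX1, an export receptor, its partner ALB1, and REI1, which removes ARX1 in the cytoplasm, changed by -3.90, -3.64 and -3.30 in experiment 1 and by -3.44, -3.77 and -3.38 in WT of experiment 2. REI1 overlaps a dubious reading frame on the other strand, and the strand setting of the counting is not given in the sources used here. NMD3 (YHR170W, chrVIII:443828-445384 on the plus strand), the adapter for the exportin CRM1, went from 283, 278 and 301 to 42.3, 46.7 and 46.7 CPM in experiment 1. In experiment 2 it went from 330.3, 386 and 425 to 96.4, 108 and 113 CPM in WT and from 407, 409 and 453 to 124, 143 and 148 CPM in HOG1-KO. No salt library overlapped a basal one of its strain, with changes of -2.67 ± 0.09, -1.85 ± 0.15 and -1.61 ± 0.15 (SE, edgeR adjusted p = 8.99e-11, 4.14e-08 and 4.03e-07).

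TIF6 (YPR016C, chrXVI:592332-593069 on the minus strand), which keeps the unfinished subunit from joining the small subunit, was the most abundant of the 60 per kb of coding sequence in all 6 groups, at 862 and 393 CPM per kb in experiment 1, 871 and 324 in WT of experiment 2 and 641 and 329 in HOG1-KO. Its libraries read 589, 603 and 717 CPM basal and 338, 277 and 255 CPM in salt in experiment 1, 412, 815 and 701 CPM basal and 287, 143 and 286 CPM in salt in WT of experiment 2, and 492, 460.3 and 466 CPM basal and 259.9, 236 and 232 CPM in salt in HOG1-KO. In both deviating WT libraries of experiment 2 TIF6 was the lowest of its group, the opposite of most of the 60. Its changes of -1.13 ± 0.13, -1.43 ± 0.26 and -0.96 ± 0.26 all passed (SE, edgeR adjusted p = 5.37e-06, 2.66e-04 and 0.00567). Across the 60 genes the basal level per kb and the coding length had little relation to the size of the decrease. Pearson r lay between -0.17 and 0.12 and Spearman rho between -0.22 and 0.04 over 60 genes, given as a description.

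**Figure D4:**
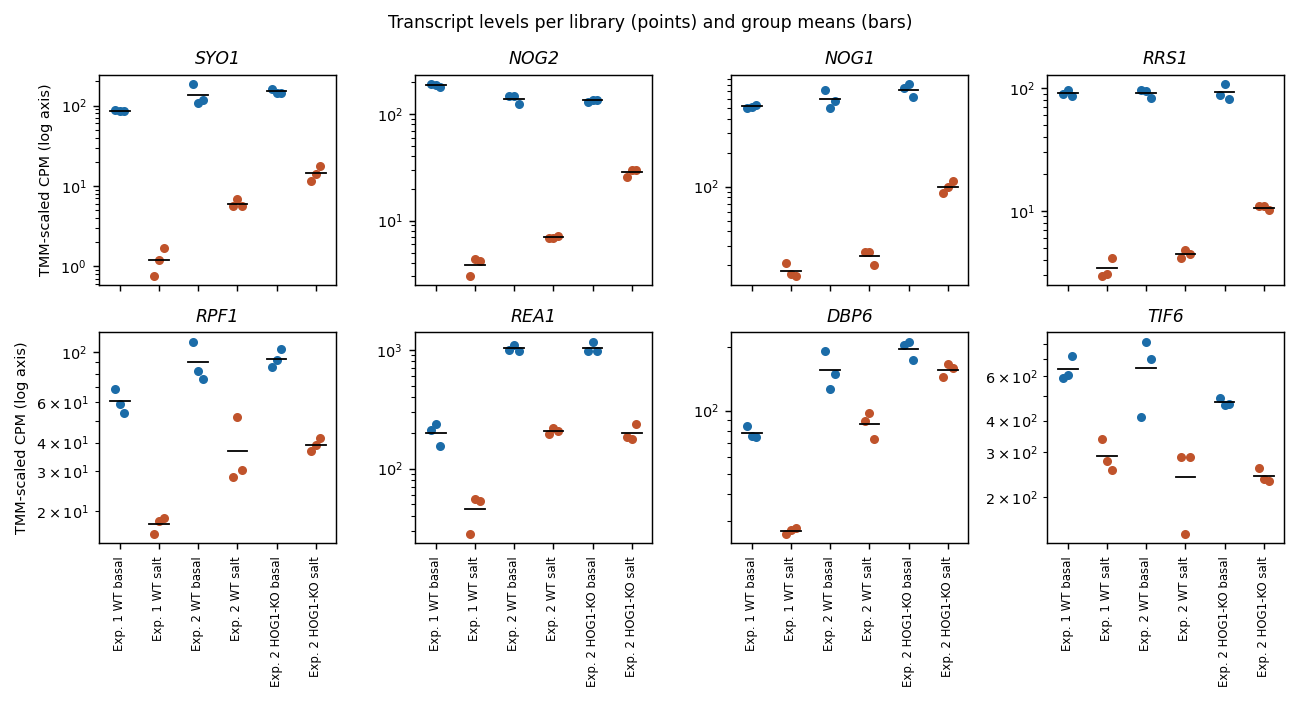
Level (TMM-scaled CPM, log axis) of named assembly factors in each library, by group, with the mean of 3 replicates as a bar. In each panel the salt libraries lie below the basal libraries of the same strain and experiment. HOG1-KO salt lies above WT salt of the same experiment for NOG2 but not for REA1.

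Whether the response depends on the HOG1 kinase was examined by the difference of the log2 responses, HOG1-KO minus WT, within experiment 2. For 25 of 60 assembly factors the decrease was smaller in HOG1-KO, and for none was it larger. Over all 6107 genes tested, 4.57% were called with a higher and 5.24% with a lower response (edgeR adjusted p under 0.05). The median difference over the 60 was 0.79, the range ran from -0.08 for REA1 to 2.08 for NOG2, and 59 of 60 were above 0. With a replicate block the count was 16 (2.42% of all genes called higher), and with scaling by total counts alone also 16 (3.37%). It was 48 without WT salt replicate 2 (9.55% of all genes) and 46 without both deviating WT libraries (9.93%), all 25 among the 46, so calls over all genes rose with those of the 60. The median difference without both was 0.91, and single differences moved by between -0.17 and 0.50. Of the 25 genes, 15 passed under every alternative tried.

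The largest differences were those of NOG2 (2.08 ± 0.18, SE, edgeR adjusted p = 1.53e-06), NOG1 (1.74 ± 0.26, adjusted p = 2.92e-04) and RLP24 (1.55 ± 0.32, adjusted p = 0.00479), and without both deviating libraries these were 2.03, 1.65 and 1.85. Next came SPB1 at 1.51, NOC2 at 1.37 and NOP4 at 1.28. The order was not fixed, as SPB1 was at 1.74 without both deviating libraries, above NOG1. NOG2 fell 19.9-fold in WT and 4.71-fold in HOG1-KO. By role, all 3 relatives of ribosomal proteins passed (RLP24, RLP7 at 1.25 and MRT4 at 1.13), as did both 5S genes (RRS1 at 1.22 and SYO1 at 1.11) and 5 of the 7 genes around RIX1 and REA1. Of the export factors ALB1, REI1 and ARX1 passed, at 1.25, 1.21 and 1.12, and NMD3 at 0.23 ± 0.21 and TIF6 at 0.47 ± 0.36 did not. Passing genes numbered 2 of 4 GTPases, 3 of 9 helicases, 2 of 6 ITS2 factors, 2 of 13 early factors, 1 of 3 Noc proteins, 2 of 3 methyltransferases and 0 of 5 Brix proteins. These counts per role are small and no difference between roles was tested. The smallest differences, none of which passed, were those of RPF1 (0.02 ± 0.29, 95% interval -0.60 to 0.65), REA1 (-0.08 ± 0.22, -0.55 to 0.40) and NSA1 (0.12 ± 0.23, -0.36 to 0.60).

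**Figure D5:**
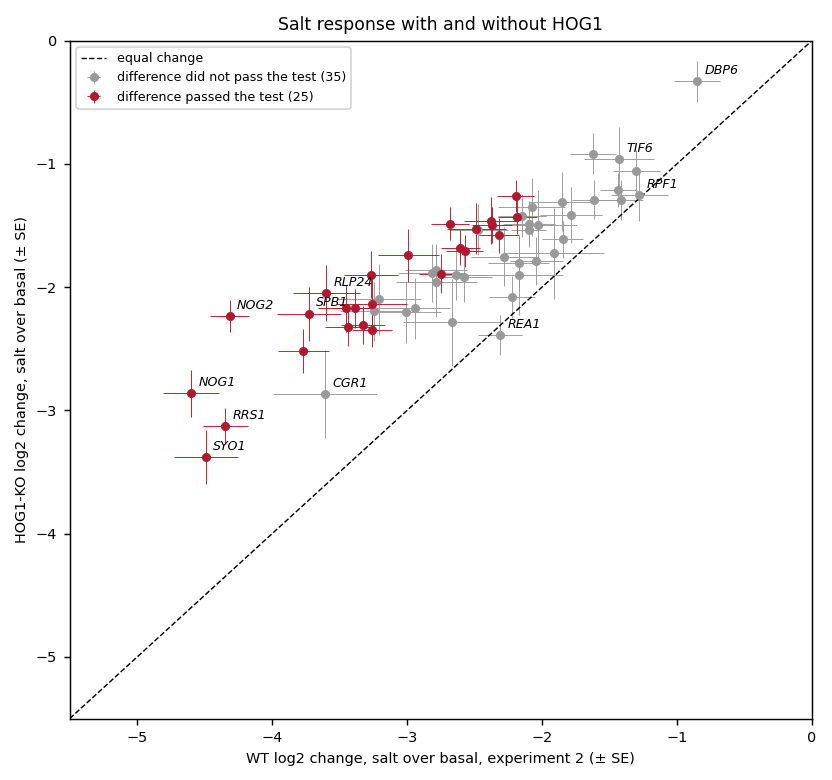
Log2 change in salt in WT (x axis) against that in HOG1-KO (y axis) in experiment 2, a point for each of the 60 genes, with the line of equal change. All genes but REA1 lie above the line, and NOG2 and NOG1 lie farthest from it.

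The strains were also compared within each treatment. In basal cells 0 of 60 transcripts differed between the strains by edgeR's adjusted p (over all genes, HOG1-KO was higher for 0.475% and lower for 0.508%), with 1 at an unadjusted p under 0.05 and 0 by DESeq2. The median difference was 0.10 and the range ran from -0.44 for TIF6 to 0.43 for SDA1. Without both deviating WT libraries, 9 were higher in HOG1-KO, from 0.39 for NOP12 to 0.69 for NOP15, and TIF6 was lower (-0.68), but 5.72% of all genes were then called higher and 11.4% lower. In salt 42 of 60 were higher in HOG1-KO and none lower (12.8% and 12.4% of all genes), with a median difference of 0.93, and 47 had every HOG1-KO library above every WT library (20.5% of all genes). The summed share of counts was 1.78-fold higher in HOG1-KO salt than in WT salt, and 2.09-fold higher without WT salt replicate 2. NOG2, at 2.03 ± 0.14, NOG1, at 2.02 ± 0.19, and SPB1, at 1.66 ± 0.23, differed most (SE, edgeR adjusted p = 2.23e-08, 8.39e-07 and 5.58e-05). DBP6, whose response in HOG1-KO did not pass, was also higher in salt there (0.85 ± 0.17, adjusted p = 0.00142). Without both deviating libraries 58 were higher, all except REA1 and TIF6, with a median of 1.16, when 24.2% of all genes were called higher, and 58 had no overlap (35.5% of all genes, with 2 WT libraries). Of the 42, 34 passed under every alternative.

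The WT decrease was smaller in experiment 2 than in experiment 1 for 15 of 60 genes and larger for none (1.53% and 1.05% of all genes), with a median difference of 0.64. DRS1 (1.96 ± 0.24, SE, edgeR adjusted p = 6.62e-04), YTM1 (1.60 ± 0.20, adjusted p = 6.62e-04) and SYO1 (1.57 ± 0.35, adjusted p = 0.0251) differed most, and NSA2, SDA1, SSF1, DBP9, NOP7, NOG2, RIX1, ERB1, NUG1, RIX7, RRP1 and NOP2 also passed, with differences from 1.57 for NSA2 down to 0.95 for NOP2. The count ranged from 7 (0.83% or 0.828% of all genes) to 22 (2.84%) when single libraries were left out. It was 29 without both deviating libraries (7.44% of all genes) and 2 with a replicate block (0.213%). DRS1 and YTM1 alone passed under every alternative. The experiments differ in the kit and in the auxotrophic markers, which cannot be told apart here.

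Other genes of the pathway were examined from a further list. Of 37 further large subunit factors, listed from textbook knowledge, 34 fell and 2 rose in WT experiment 1 (median -1.79). In WT experiment 2, 33 fell and 2 rose (-1.37), and in HOG1-KO 31 fell and 1 rose (-1.08). Of all genes, 33.8%, 27.2% and 25.6% were called lower and 35.4%, 30.1% and 28.8% higher, in the same order. The largest decreases in experiment 1 were those of RRP5, which acts on the precursors of both subunits, at -4.14, and of PWP1, at -3.70. REH1, the paralog of REI1, rose in all 3 comparisons, by 0.35 ± 0.10, 0.67 ± 0.19 and 0.68 ± 0.18 (SE, edgeR adjusted p = 0.00881, 0.00601 and 0.00591), while REI1 fell by 3.30, 3.38 and 2.17 on the log2 scale. CRM1, the exportin that NMD3 binds, rose in WT by 0.26 and 0.36 (edgeR adjusted p = 0.0391 and 0.0402) and was at 0.03 ± 0.14 in HOG1-KO, where it did not pass. The difference of responses was called for 5 of the 37, each a smaller decrease in HOG1-KO (4.57% of all genes were called higher). It was called lower for 0 of the 37, CRM1 included (5.24% of all genes). The CRM1 responses of the strains were thus not shown to differ. The lists were not tested against each other.

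The ribosomal proteins that these factors carry, precede or resemble had smaller changes. Of 10 such genes, 10 fell in WT experiment 1 (median -1.12), 6 in WT experiment 2 (-0.53) and 3 in HOG1-KO (-0.20). Over all genes 33.8%, 27.2% and 25.6% were called lower, so the 3 of 10 in HOG1-KO lie near the background. RPL5, carried by SYO1, changed by -0.87, -0.53 and -0.37, the last not passing, against -6.10, -4.49 and -3.38 for SYO1. RPL11A, the other client, changed by -0.94, -0.32 and -0.13, of which the first passed. RPL24A and RPL7A, the relatives of RLP24 and RLP7, changed by -1.16 and -1.07 in experiment 1. RPL7B had the largest decreases of the 10 in both WT experiments, with changes of -2.98, -2.14 and -1.19. It was the only one to pass the test of the difference of responses between the strains (0.95, with 4.57% of all genes called higher). In HOG1-KO the other genes that passed were RPL3, at -1.32, and RPL11B, at -1.11. The RPL pairs are near-identical paralogs, and how reads were shared between them is not given in the sources used here.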

How the data were processed

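Poly(A) RNA of yeast was sequenced with single-end 50 bp reads, per the labels' protocols. The authors deposited raw counts per gene, a table per experiment, and the submitters' processing notes name HISAT2 2.1.0 and featureCounts 1.5.1 with build R64. Which annotation was used, whether counting was stranded and how multiply matching reads were treated is not given in the sources used here. All table columns matched a sample by name.

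The deposited counts were tested with edgeR 4.0.16 in R 4.3.3 (TMM scaling, filterByExpr, robust quasi-likelihood fit, contrasts of group means). P-values are two-sided and were adjusted (Benjamini-Hochberg) over every gene tested, with a threshold of 0.05. Experiment 1 was fitted on its 6 libraries, experiment 2 on its 12, and the difference between the WT responses on the 12 WT libraries, 7 contrasts in all. The procedure was tested on simulated data. The deposited counts were turned into TMM-scaled CPM within each experiment for levels, with SD over 3 libraries, and are divided by coding length where genes are compared. Counting error is smallest for abundant genes: the 60 genes held between 9 and 15619 counts per library. No pair of replicates agreed within sampling noise (6.34 to 168 in chi-square per degree of freedom), so no library was taken for a repeat.

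Names, lengths and promoters came from NCBI RefSeq's R64 annotation and genome, in which 6048 identifiers matched; overlapping RRPE matches were counted once. The members and gene lists were chosen with earlier results of these data known. Genes with values in every library were those named in the choice of the set, the 3 largest and 3 smallest changes in each salt contrast, the 3 largest and 3 smallest differences of response, the 3 largest strain differences in salt, and the pair SSF1 and SSF2. Ribosomal proteins of the pathway, 10 in number, and 38 further factors, of which REX1 was not matched, came from textbook knowledge.

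Alternatives were DESeq2 1.42.0, its size factors (RLE) in edgeR, total counts alone, no filter, a filter of 10 CPM in 3 libraries, only the groups compared, a replicate block, leaving out each library, and, chosen after seeing the data, leaving out both deviating WT libraries of experiment 2. In HOG1-KO, the deviations of basal and salt libraries of the same number were weakly related over all genes (r = 0.163, 0.326 and 0.179). WT basal replicate 1 and salt replicate 2 of experiment 2, of unlike number, reached 0.761, so such values do not show pairing. The main fits held no replicate term. Protein sequences were not used here.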

Additional observations from a re-analysis of the deposited data

Results flagged for a closer look

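The salt response differed between HOG1-KO and WT cells of experiment 2 for 25 assembly factors by the test of the difference itself (edgeR, adjusted p under 0.05 over all genes), each with a smaller decrease in HOG1-KO. The differences of the log2 responses, HOG1-KO minus WT, were as follows. Among the GTPases, NOG2 differed by 2.08 and NOG1 by 1.74. The relatives of ribosomal proteins differed by 1.55 (RLP24), 1.25 (RLP7) and 1.13 (MRT4). The methyltransferases SPB1 and NOP2 differed by 1.51 and 0.86. NOC2, which escorts the precursor, differed by 1.37. The early nucleolar factors NOP4 and NSA2 differed by 1.28 and 0.92. The export factors ALB1, REI1 and ARX1 differed by 1.25, 1.21 and 1.12, and the 5S genes RRS1 and SYO1 by 1.22 and 1.11. The helicases DBP7, DBP3 and DBP10 differed by 1.19, 0.91 and 0.74. Around RIX1 and REA1, the differences were 1.02 for IPI3, 0.96 for IPI1, 0.93 for RSA4, 0.93 for RIX1 and 0.76 for RIX7. ERB1 and its partner YTM1, of the ITS2 cluster, both differed by 0.87.

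A total of 15 of these genes passed under every alternative. The other 10, DBP10, IPI1, IPI3, MRT4, NOP2, NSA2, RIX7, RLP7, SYO1 and YTM1, missed the threshold under at least 1 of 19 alternatives, and IPI1 and NSA2 did so most often, under 13.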

How the results depend on the processing

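The counts of lower genes in salt (60, 60 and 59 of 60 in WT experiment 1, WT experiment 2 and HOG1-KO) were the same under every alternative, leaving out each library included, except that 60 passed in HOG1-KO with only the groups compared and without both deviating WT libraries. The medians without single libraries ran from -3.56 to -3.35, -2.74 to -2.35 and -1.87 to -1.79. The difference of responses was called for 25 genes and for 16 with total counts alone (3.37% of all genes), 18 without HOG1-KO salt replicate 3 (3.18%) to 48 without WT salt replicate 2 (9.55%) when single libraries were left out and 46 without both deviating WT libraries, where 9.93% of all genes were called higher. The replicate block gave 16 of 25 for this difference, 59 for HOG1-KO in salt, unchanged, and 2 of 15 for the difference between experiments. Same-numbered WT libraries did not deviate together throughout (r from -0.418 to 0.0347 in experiment 1 and from -0.536 to 0.504 in experiment 2). A shared number is thus not shown to pair WT libraries either. The basal strain difference, 0 otherwise, had 9 higher and 1 lower without both deviating libraries, where 5.72% of all genes were higher and 11.4% lower. The strain difference in salt, 42 (12.8% of all genes), ran from 35 without WT salt replicate 1 (10.2% of all genes) to 56 without WT salt replicate 2 (19.5%). The difference between experiments, 15 (1.53% of all genes), was 9 with total counts alone (1.61%), 26 with DESeq2 (3.44%) and 29 without both deviating libraries (7.44%). Without single libraries it ran from 7 without WT salt replicate 1 of experiment 1 (0.83%) or WT basal replicate 3 of experiment 2 (0.828%) to 22 without WT basal replicate 1 of experiment 2 (2.84%). Calls over all genes moved along with those of the 60 in these leave-one-out extremes. The sign of the smallest differences of response turned: RPF1 (0.02) ran to -0.15, -0.14 and -0.10 without WT basal replicate 1, WT salt replicate 1 and WT salt replicate 3, and to -0.03 without HOG1-KO basal replicate 1 or salt replicate 3 (the highest value without a library being 0.41), and REA1 (-0.08) to 0.023 and 0.0088 without WT salt replicate 2 and HOG1-KO basal replicate 2 (lowest -0.22). The causes of these changes were not tested. Scaling by total counts moved the median of all genes by up to 0.22. In the window before the start only, the PAC core was in 55 and both cores in 53 of 60 promoters. Low counts limit SYO1 in salt, at 9 counts in a library.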
